A study of Mus musculus with 21 samples.

Results

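The *Kcnh* family is the set of 8 genes, *Kcnh1* to *Kcnh8*, that encode the EAG, ERG and ELK voltage-gated potassium channels. The members were taken by symbol, without use of their values, and all 8 were found among the 52550 genes of the RNA-Seq count table of mouse inner ear cells. Their expression was followed in spiral ganglion neurons (SGNs), the neurons that carry sound signals from the cochlea to the brain, and was compared with that in 2 reference cell types. The SGNs were C57BL/6 mouse cells from an embryonic age, E15.5, and from the postnatal ages P1, P8, P14 and P30, and carried *ShhCre/+* and 1 copy of the Ai9 reporter, *Rosa26-CAG-loxp-stop-loxp-tdTomato*. In this line Cre follows *Shh*, which cochlear neurons express for a limited time in the embryo, and the red cells that result were picked by hand. Hair cells (HCs), the sensory cells that SGNs contact, came from both cochlear and vestibular organs at P12, from mice with *Atoh1-CreER+*, the same reporter and tamoxifen at P0 and P1. Cochlear glial cells came from P8 mice with *vGlut3-iCreER/+*, the same reporter and tamoxifen at P2 and P3, and only the SGN area was dissected because this driver also labels inner HCs. Each of the 7 groups had 3 libraries, 21 in all, and each library was a pool of 69 to 195 SGNs, of 86 to 125 glial cells or of about 1200 HCs. The labels call all cells manually picked, whereas the methods of the study describe sorting by flow cytometry for HCs. No source used here says whether the 3 libraries of a group came from separate animals, so p-values measure the spread between these pools.

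The channels of this family are tetramers with a cytoplasmic domain at each end, and despite a cyclic nucleotide-binding-like domain they are gated by voltage. ERG channels inactivate quickly and recover before they close, so they pass current late, after a depolarization, and *Kcnh2* (ERG1) is best known for its part in repolarizing the heart. EAG channels are non-inactivating and are inhibited by calcium-bound calmodulin, and ELK channels open at potentials near rest and are known mainly from neurons. Channels of these subfamilies can set the resting potential and the firing pattern of a neuron.

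Total counts on genes lay between 10368240 and 37287489 per library (median 20384100). Defining markers were high in the cells they name: summed SGN markers (*Slc17a6*, *Slc17a7*, *Lypd1*) were at 37.6 TPM (counts divided by gene length, with 1 common total for all libraries) or more in the 15 SGN libraries, and summed HC markers (*Myo6*, *Myo7a*, *Pou4f3*, *Gfi1*) were at 1288 to 1441 TPM in HCs. Glial replicate 1 stood apart, with 38.4 TPM of SGN markers against 5.12 and 1.82 in the other glial libraries. This was above the lowest SGN library, E15.5 replicate 2 (37.6 TPM). P14 replicate 1 had the most HC markers (106.7 TPM, against 76.9 or less in the other SGN libraries). Its glial markers *Sox10* and *Foxd3* summed to 19.2 TPM, against 3.31 and 8.44 in the other P14 libraries and 188.7 to 341.3 in glial cells. Outer HC markers (*Slc26a5*, *Ocm*) were also found in SGNs, at 394 to 450 TPM at P1 and 203 to 397 TPM at P8, against 0.0673 to 149.4 TPM at E15.5 and 2628 to 3370 TPM in HCs. Schwann cell myelin markers summed to 813 to 1489 TPM in P8 SGNs, against 81.0 to 219.9 TPM in P1 SGNs and 7288 to 9942 TPM in glial cells. The first sum moved with the step from E15.5 to P1, and the second with the step from P1 to P8 and with the comparison of P8 SGNs and glial cells, and their part in these results was not tested. In such pools, fewer cells of a type and less RNA per cell cannot be told apart.

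The genes lie on 7 chromosomes (GRCm38, GENCODE M21). The ERG genes are *Kcnh2* (chr5:24319589-24351604, minus strand), *Kcnh6* (chr11:106008124-106034549, plus strand) and *Kcnh7* (chr2:62693414-63184287, minus strand). The EAG genes are *Kcnh1* (chr1:192190774-192510159, plus strand) and *Kcnh5* (chr12:74897220-75177332, minus strand). The ELK genes are *Kcnh3* (chr15:99224861-99242817, plus strand), *Kcnh4* (chr11:100740376-100759942, minus strand) and *Kcnh8* (chr17:52602709-52979194, plus strand). Of the 15226 exonic bases of *Kcnh7*, 696 also belong to exons of *Gca* on the opposite strand, and the strand setting of the counting is not given in the sources used here, so reads in that stretch could belong to either gene.

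The 250 bases before the RefSeq start (GRCm38.p6) are shown for 1 gene of each subfamily, the ones whose levels separated the cell types in different ways: *Kcnh5*, found in SGNs and nearly absent in HCs, *Kcnh7*, high in HCs and mature SGNs, and *Kcnh8*, high in HCs and glial cells. Sequences are written 5′ to 3′ on the strand of the gene, with each CG dinucleotide in capitals.
Kcnh5 (chr12:75177333-75177582, minus strand): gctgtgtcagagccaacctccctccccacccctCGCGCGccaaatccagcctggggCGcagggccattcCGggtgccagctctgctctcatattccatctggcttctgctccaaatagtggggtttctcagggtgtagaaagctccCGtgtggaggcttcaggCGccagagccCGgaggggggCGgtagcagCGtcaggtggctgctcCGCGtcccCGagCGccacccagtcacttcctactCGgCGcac
Kcnh7 (chr2:63184288-63184537, minus strand): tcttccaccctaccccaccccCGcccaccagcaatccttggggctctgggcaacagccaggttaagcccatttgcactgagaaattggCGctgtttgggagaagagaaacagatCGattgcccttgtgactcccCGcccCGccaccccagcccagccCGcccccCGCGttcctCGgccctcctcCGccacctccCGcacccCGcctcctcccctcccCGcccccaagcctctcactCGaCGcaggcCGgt
Kcnh8 (chr17:52602459-52602708, plus strand): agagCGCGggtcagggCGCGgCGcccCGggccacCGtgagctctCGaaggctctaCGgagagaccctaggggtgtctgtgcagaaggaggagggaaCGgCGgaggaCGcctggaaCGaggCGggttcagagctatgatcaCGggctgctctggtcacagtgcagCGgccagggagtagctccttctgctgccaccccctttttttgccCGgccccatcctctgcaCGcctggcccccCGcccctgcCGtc
A CG count is a rough measure of a CpG-island start. The window held 16 CG dinucleotides at *Kcnh5*, 16 at *Kcnh7* and 20 at *Kcnh8*, against a median of 6 over the 32851 windows of this length in the RefSeq table. Counts as high were found in 25.4% of these windows for *Kcnh5* and *Kcnh7* and in 17.9% for *Kcnh8*. The 7 members with an entry (no entry was used for *Kcnh3*) held 14 to 21. The lowest, 14, was that of *Kcnh2*, whose RefSeq start lies 22013 bases inside the outermost annotated start.

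SGNs, HCs and glial cells each used a different mix of the family, and the mix in SGNs moved from all 3 subfamilies toward ERG with age. The summed TPM of the 8 genes was 62.6 ± 24.2 (SD, n = 3) in embryonic SGNs. It was 144 ± 35.1 in P1 SGNs, 163 ± 98.1 in P8 SGNs, 154 ± 63.4 in P14 SGNs and 146 ± 31.5 in P30 SGNs. HCs had a sum of 258 ± 26.9 and glial cells of 29.9 ± 15.8. This gap was wider in TPM than in pooled CPM (counts scaled to the library total). *Kcnh2* was at 76.8 and 10.9 TPM in HCs and glial cells but at 143.6 and 47.4 CPM. *Kcnh8* was at 62.7 and 15.9 TPM but at 109.5 and 61.8 CPM. Each E15.5 sum (36.8 to 84.8) lay below each P1 sum (118 to 184), whereas the 4 postnatal ages overlapped. ERG genes took 53.7% ± 3.15 of the sum and 55.6% ± 2.04 at the earliest 2 ages, E15.5 and P1. They took 71.6% ± 6.44 and 72.0% ± 7.26 at the next 2, P8 and P14, and 84.4% ± 5.64 at P30. The ELK share went from 26.0% ± 4.1 at E15.5 to 6.15% ± 1.24 at P1 and 0.822% ± 0.346 at P30. The EAG share was highest at P1 (38.3% ± 2.26) and lay between 9.72% and 21.1% at P30. HCs combined 75.2% ± 2.38 of ERG with 24.8% ± 2.37 of ELK and 0.0345% ± 0.0464 of EAG, and in glial cells ELK took 51.5% ± 10.1 and ERG 42.7% ± 8.84. These shares are descriptions and were not tested, and they rest on 1 length per gene (*Kcnh7* most of all, as given with its levels).

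**Figure D1:**
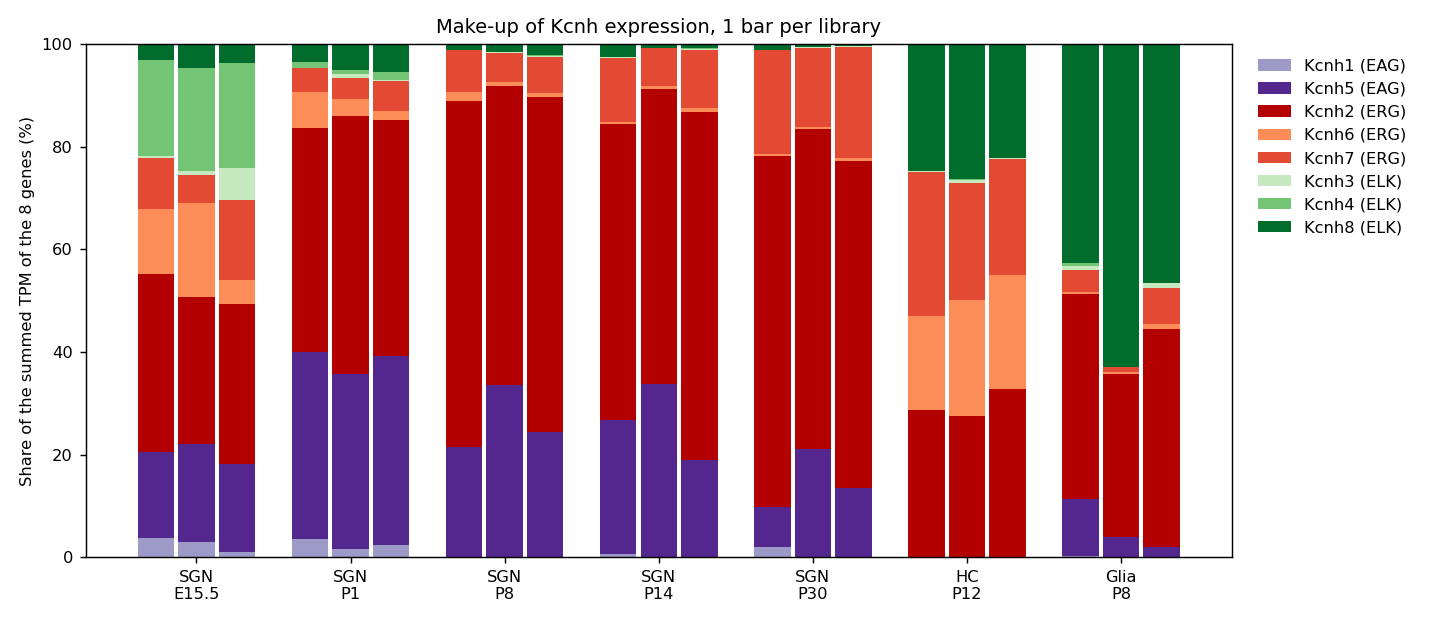
Stacked bars give the share (%) of each of the 8 genes in their summed TPM, 1 bar per library, 3 per group. The green ELK part shrinks from 26.0% at E15.5 to 0.822% at P30 on average, the purple EAG part is almost missing in HCs (0.0345%), and *Kcnh8* fills 42.7% to 63.0% of each glial bar.

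*Kcnh2*, the gene of ERG1, was the most abundant member in SGNs at each age by TPM on the deposited gene lengths, and it rose most between E15.5 and P8. Its TPM in replicates 1, 2 and 3 was 22.9, 10.6 and 26.3 at E15.5, 56.9, 59.4 and 84.5 at P1, and 83.0, 159.9 and 59.6 at P8. It was 105.9, 46.9 and 133.9 at P14 and 91.2, 113.4 and 78.3 at P30. HCs had 65.5, 72.3 and 92.5 TPM and glial cells 13.7, 13.7 and 5.28 TPM. In TPM all 3 P1 libraries were thus above all E15.5 libraries, and the later ages overlapped each other and HCs. In CPM the P8 libraries (257.1 to 318.0) lay above the P1 libraries (163.5 to 179.6). The P30 libraries (299.6 to 318.4 CPM) lay above those of P14 (214.1 to 259.6 CPM). HC libraries, at 128.7 to 165.7 CPM, lay below all P8, P14 and P30 libraries. From E15.5 to P1 the fitted log2 fold change was 1.33 (95% interval 0.95 to 1.72, limma-voom adjusted p = 0.00042). From P1 to P8 it was 0.93 (0.63 to 1.23, limma-voom adjusted p = 0.0005), which passed the p threshold but not the 2-fold limit. Over the whole span to P30, *Kcnh2* rose by 2.49 (2.12 to 2.87, limma-voom adjusted p = 3.1e-08), and this call was kept by 8 of 8 alternatives and without each of 6 libraries. P8 and P14 differed by -0.19 (-0.49 to 0.10), an interval that lies within a 2-fold change either way.

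*Kcnh7*, the gene of ERG3, was low in young SGNs, highest among SGNs at P30 and higher still in HCs. It was at 6.64, 1.99 and 13.3 TPM at E15.5, 6.02, 4.92 and 10.9 at P1, and 10.03, 15.7 and 6.36 at P8. It was at 23.1, 6.01 and 22.2 TPM at P14 and at 27.0, 27.9 and 26.5 TPM at P30. HCs had 64.2, 59.9 and 63.6 TPM, and glial cells had 1.43, 0.409 and 0.878. The 3 P30 libraries lay above all younger SGN libraries, and each HC library lay above each SGN library. In CPM, P30 SGNs (231.9 to 339.1) and HCs (340.9 to 396.2) lay closer together than in TPM. P30 SGNs were not tested against HCs. *Kcnh7* rose by 2.44 on the log2 scale from E15.5 to P30 (1.78 to 3.11, limma-voom adjusted p = 1.5e-05). No single step between neighboring ages passed: the log2 fold change was 0.99 from P1 to P8 (adjusted p = 0.056) and 1.23 from P14 to P30 (0.65 to 1.80, adjusted p = 0.1375), both by limma-voom. At P14 and P30 the libraries with the same number deviated together, and with the replicate number as a block the P14 to P30 estimate was 1.22 with a limma-voom adjusted p of 0.0279, past the threshold. It was also past the threshold with DESeq2 (adjusted p = 0.0338) and with sample quality weights (adjusted p = 0.0133), but not with edgeR (adjusted p = 0.31). Its transcripts range from 2849 to 13321 bases in the annotation, and with the shortest as the length its mean TPM would be 145 in P30 SGNs and 334 in HCs in place of 27.2 and 62.5, and *Kcnh2*, on its own shortest length, would be at 143 and 117.

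*Kcnh6*, the gene of ERG2, was mainly a HC gene in these libraries, with a low level in young SGNs that declined with age. HCs had 41.7, 59.5 and 62.5 TPM, whereas glial cells had 0.174, 0.137 and 0.120. SGNs had 8.28, 6.71 and 3.99 TPM at E15.5, 9.06, 3.95 and 3.42 at P1, and 2.19, 2.03 and 0.843 at P8. They had 0.549, 0.435 and 1.86 TPM at P14 and 0.453, 0.685 and 0.776 TPM at P30. In TPM all E15.5 and P1 libraries were above all libraries from P8 on, whereas in CPM P1 replicate 3 (5.20) was below P8 replicate 1 (5.31). The step from P1 to P8 was not called (log2 fold change -1.33, interval -2.66 to 0.002, limma-voom adjusted p = 0.199). From E15.5 to P30 *Kcnh6* fell by 3.13 on the log2 scale (interval -4.81 to -1.45, limma-voom adjusted p = 0.0052), and the call was kept by 8 of 8 alternatives and without each of 6 libraries. As a check on HC material in these pools, the HC markers of the E15.5 libraries reached 2.11%, 0.792% and 1.502% of their mean in HCs, and *Kcnh6* reached 15.2%, 12.3% and 7.32% of its own. Outer HC markers were at 0.00221%, 2.14% and 4.90% of their HC mean in the same libraries. In the P1 libraries outer HC markers were at 13.6%, 12.9% and 14.8% and *Kcnh6* at 16.6%, 7.23% and 6.27% of its HC mean. In P30 replicates 1, 2 and 3 the 4 HC markers were at 2.15%, 2.04% and 1.35% and *Kcnh6* at 0.83%, 1.25% and 1.42% of the HC mean. The part of HC RNA in these values was not tested.

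*Kcnh5*, the gene of EAG2, was present in SGNs at all 5 ages and nearly absent from HCs. It was at 11.1, 7.02 and 14.6 TPM at E15.5, 47.3, 40.2 and 67.7 at P1, and 26.5, 92.5 and 22.3 at P8. It was at 47.8, 27.4 and 37.5 TPM at P14 and at 10.3, 38.3 and 16.4 TPM at P30. HC libraries held 4, 0 and 0 counts, and a count of 0 allows up to 3 counts (counting error only). Glial libraries held 252, 72 and 10 counts, or 3.83, 1.73 and 0.262 TPM. In glial replicates 1, 2 and 3 the SGN markers were at 13.8%, 1.84% and 0.656% of their mean in P8 SGNs, and *Kcnh5* was at 8.14%, 3.67% and 0.556% of its own. The part of SGN RNA in the glial values was not tested. From E15.5 to P1 *Kcnh5* rose by 1.77 (0.92 to 2.61, limma-voom adjusted p = 0.0105), and all P1 libraries were above all E15.5 libraries. The call was lost with sample quality weights (adjusted p = 0.0827) and kept by the other 7 alternatives. Between P1 and P8 the estimate was 0.02 (-0.61 to 0.64), and from P14 to P30 it was -0.74 (-1.47 to -0.01, limma-voom adjusted p = 0.75). Over the whole span the log2 fold change was 0.90 (adjusted p = 0.098), and without P30 replicate 1 it was 1.41 (adjusted p = 0.0107), both by limma-voom. It was called with edgeR (1.10, adjusted p = 0.0174) and with DESeq2 (1.07, adjusted p = 0.00639).

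*Kcnh1*, the gene of EAG1, was a minor member, found mainly in SGNs at E15.5 and P1. Its TPM was 2.51, 1.07 and 0.871 at E15.5 and 4.59, 1.92 and 4.41 at P1. At P8 it was 0.0562, 0.0809 and 0.107, from 10, 8 and 20 counts. Each P8 library was below each earlier one, and the log2 fold change from P1 to P8 was -5.02 (-7.88 to -2.16, limma-voom adjusted p = 0.0238). This call was lost with edgeR (adjusted p = 0.0806) and without P1 replicate 1 (0.065) or P8 replicate 1, 2 or 3 (0.0817, 0.0987 and 0.0787, limma-voom adjusted p-values). *Kcnh1* passed the filter on low counts through E15.5 and P1 alone, so a fall was built into this test. At the oldest ages 1 library per age held nearly all counts, with 98, 0 and 5 counts at P14 and 496, 7 and 14 at P30. These were replicate 1 at both ages. The same libraries were the highest of their age in several marker sums. These were HC (106.7 and 29.8 TPM), outer HC (556.6 and 323.9), Schwann cell myelin (953 and 231.6), glial (19.2 and 2.31), connective tissue (65.7 and 19.4) and endothelial (11.3 and 1.44). They were also the highest in the Type II SGN markers *Prph* and *Gata3*, which sum to 113.6, 7.67 and 66.1 TPM at P14 and to 118.5, 11.97 and 4.14 TPM at P30. At P8, where *Kcnh1* was near 0, that sum was 33.6, 40.2 and 13.9 TPM. The part of any of these cell types in the *Kcnh1* values was not tested. HC libraries held 0, 2 and 0 counts and glial libraries 8, 0 and 0.

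*Kcnh8*, the gene of ELK1, was low in SGNs of each age and higher in HCs and glial cells. HCs had 56.4, 69.0 and 62.5 TPM and glial cells 14.6, 27.1 and 5.80 TPM. SGNs had 2.07, 1.71 and 3.09 TPM at E15.5, 4.54, 6.09 and 9.93 at P1, and 1.48, 4.39 and 2.03 at P8. They had 4.804, 0.574 and 1.67 TPM at P14 and 1.51, 0.987 and 0.594 TPM at P30. In TPM the HC libraries were above all others, while the lowest glial library (5.80) lay within the range of P1 SGNs. No step between neighboring ages passed the test, with log2 fold changes of 0.98 (0.06 to 1.91, adjusted p = 0.15) from E15.5 to P1 and -1.01 (-1.83 to -0.19, adjusted p = 0.109) from P1 to P8, both by limma-voom. P14 replicate 1 held the highest *Kcnh8* of its age. Its HC markers were at 7.68% and its outer HC markers at 18.2% of their HC means. Its glial markers were at 6.73% and its myelin markers at 11.5% of their glial means. *Kcnh8* was at 7.67% of its HC mean and 30.3% of its glial mean there. In P8 replicates 1, 2 and 3 myelin markers were at 17.6%, 17.95% and 9.795% and *Kcnh8* at 9.355%, 27.7% and 12.8% of the glial mean. In the P1 libraries HC markers were at 3.31%, 5.54% and 4.56% and *Kcnh8* at 7.25%, 9.72% and 15.9% of its HC mean, and the outer HC markers, at 13.6%, 12.9% and 14.8%, were above *Kcnh8* in replicates 1 and 2. The part of HC or glial RNA in these values was not tested.

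*Kcnh4*, the gene of ELK3, was found in embryonic SGNs and fell to a count of 0 by P30. Its TPM was 12.3, 7.42 and 17.3 at E15.5 and 1.51, 0.744 and 3.02 at P1, so that the ages did not overlap. P8 libraries held 0, 6 and 14 counts, P14 libraries 0, 9 and 9, and P30 libraries none. At E15.5 it took 19.8% ± 0.954 of the family's TPM (SD, n = 3), below *Kcnh2* (31.5% ± 2.99) and close to *Kcnh5* (17.7% ± 1.23). The log2 fold change was -3.45 from E15.5 to P1 (-4.57 to -2.34, limma-voom adjusted p = 0.00097) and -4.72 from P1 to P8 (-7.28 to -2.16, limma-voom adjusted p = 0.0185). The first call was lost with edgeR (adjusted p = 0.0549), and the second with edgeR (0.065) and without P8 replicate 1 (0.0906) or 2 (0.0572, adjusted p-values). *Kcnh4* passed the filter on low counts through E15.5 and P1 alone, so a fall to later ages was built into the second test. Against a limit of 3 counts over the P30 group, E15.5 was at least 1081-fold higher, or at least 541-fold if both reads of a pair were counted. The exact counting intervals of pooled ratios would widen in that case too. HC libraries held 1, 12 and 0 counts and glial libraries 11, 0 and 0. *Kcnh3*, the gene of ELK2, did not reach the filter for testing. It was at 0.260, 0.283 and 5.32 TPM at E15.5, where replicate 3 held 218 counts, and at 1.66 TPM or less in every other library of the 7 groups.

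**Figure D2:**
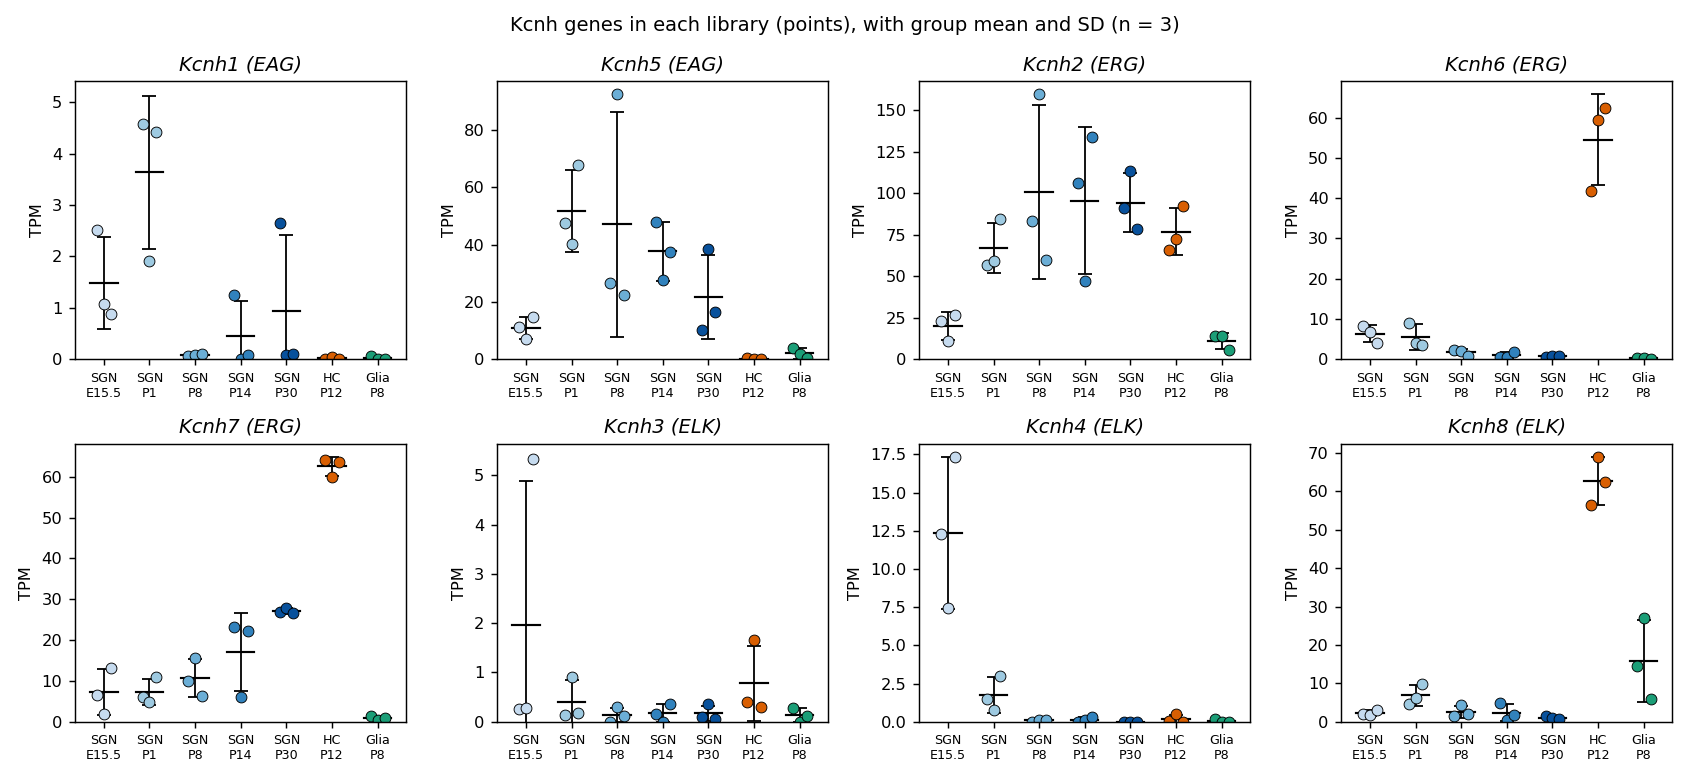
Each panel gives 1 gene, with TPM on a linear axis that starts at 0, a point per library and the mean and SD of each group (n = 3). *Kcnh6*, *Kcnh7* and *Kcnh8* peak in HCs, *Kcnh5* and *Kcnh1* are near 0 there (0.0664 and 0.0142 TPM), and *Kcnh4* falls from 12.4 TPM at E15.5 to 0 at P30.

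Ordered by mean TPM on the deposited lengths, *Kcnh2* led at all 5 SGN ages and in HCs, and *Kcnh8* led in glial cells (15.9 ± 10.7 against 10.9 ± 4.85 for *Kcnh2*). In SGNs *Kcnh5* came next from P1 to P14. Its range overlapped that of *Kcnh2* at these ages, although *Kcnh2* was the higher gene within each library. At P30 *Kcnh7* (27.2 ± 0.716) and *Kcnh5* (21.7 ± 14.7) overlapped, and both lay below *Kcnh2* (94.3 ± 17.8) and above the other 5 members. HCs had 4 members at similar levels, *Kcnh2* (76.8 ± 14.01), *Kcnh8* (62.7 ± 6.28), *Kcnh7* (62.5 ± 2.32) and *Kcnh6* (54.6 ± 11.3, SD, n = 3 TPM values each), and neighbors in this order overlapped. The remaining 4 members were below 1 TPM on average in HCs. With the shortest coding transcripts as lengths, *Kcnh7* led in HCs (334 against 117 TPM for *Kcnh2*). It was then also above *Kcnh2* at E15.5 (39.0 against 30.2 TPM) and at P30 (145 against 143 TPM). These orders and the likeness of the 4 HC levels thus hold for the deposited lengths only.

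The comparisons between ages asked at which steps of SGN maturation members changed. In the unblocked limma-voom fit, members were called only at the steps up to P8, which also had the largest shares of all genes called. With 0.536% and 0.0596% of all genes called at the later steps, 0 of 7 members there does not set the family apart. A gene was called at a limma-voom adjusted p under 0.05 and a fold change over 2, and 7 of the 8 members could be tested. *Kcnh1* and *Kcnh4* passed the filter on low counts through their levels at E15.5 and P1 alone, so a fall from these ages to later ones was built into their tests. From E15.5 to P1, 3 members were called, with *Kcnh2* and *Kcnh5* higher and *Kcnh4* lower, against 8.26% of the 15113 genes tested. From P1 to P8, 2 members were called, *Kcnh1* and *Kcnh4*, both lower, against 7.44% of all genes. The number for this step was 0 with edgeR, and 0 without P8 replicate 1 or 2. From P8 to P14, limma-voom called 0 members, against 0.536% of all genes, with 0 at an unadjusted p under 0.05 and 0 with edgeR and with DESeq2. From P14 to P30 it called 0 members, against 0.0596% of all genes. Here 3 members had an unadjusted p under 0.05 (*Kcnh2*, *Kcnh5* and *Kcnh7*), and edgeR called 0 and DESeq2 2. The DESeq2 calls were *Kcnh7* and a member other than *Kcnh2* or *Kcnh5*. With the replicate number as a block, 1 member was called, *Kcnh7* (adjusted p = 0.0279). Without P14 replicate 1, the SGN library with the most HC markers, 0 members were called at each of these 2 steps. From E15.5 to P30, 4 members were called, with *Kcnh2* and *Kcnh7* higher and *Kcnh6* and *Kcnh4* lower, against 34.6% of all genes, and edgeR and DESeq2 each called 5. The comparisons share libraries and are not independent of each other.

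**Figure D3:**
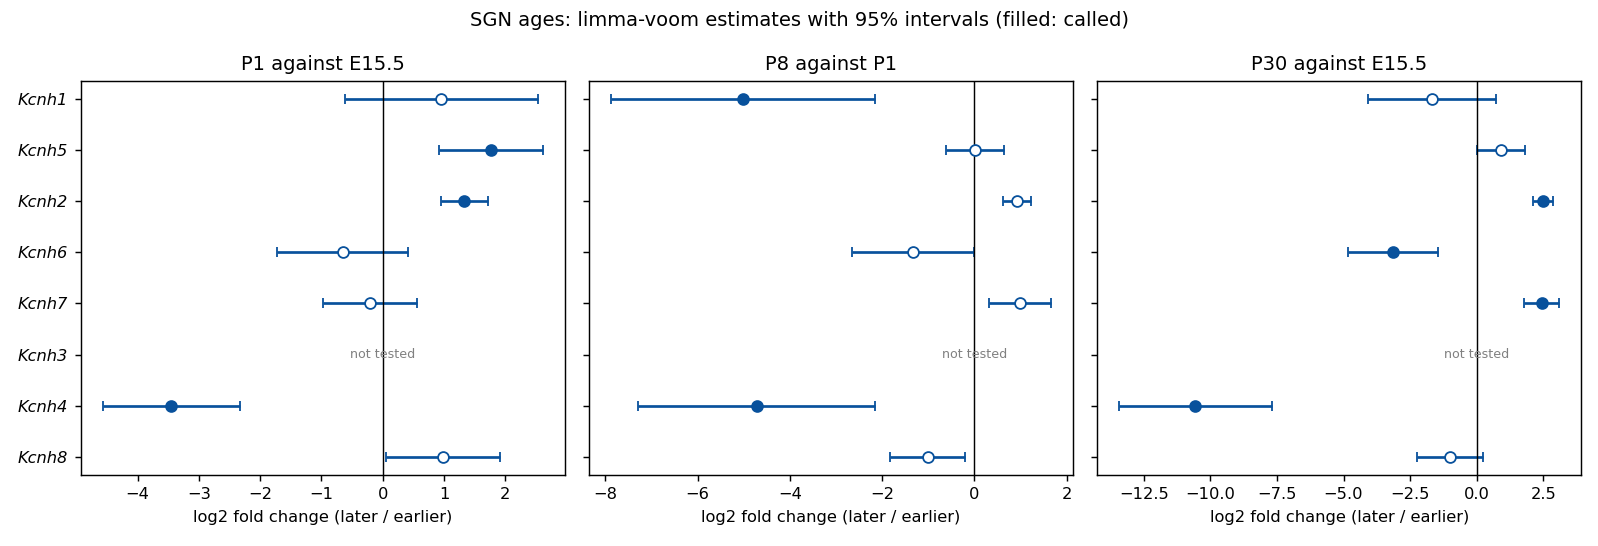
Points give the log2 fold change of the later against the earlier age, with 95% intervals from limma-voom on 15 SGN libraries, and filled points were called. *Kcnh2* lies to the right in all 3 panels (1.33, 0.93 and 2.49) and *Kcnh4* to the left; its P30 estimate is set against a group with no counts and is not a bound.

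The comparisons with HCs and glial cells asked which members separated SGNs from the cells around them, at a limma-voom adjusted p under 0.01 and a fold change over 4. Against HCs, 4 of the 7 members tested were called over the mean of the 5 SGN ages, against 26.8% of 17531 genes. EAG genes were higher in SGNs and *Kcnh6* and *Kcnh8* were higher in HCs. In pooled CPM (counts scaled to the library total), *Kcnh5* was 960 times as high in SGNs as in HCs (exact 95% counting interval 375 to 3522, from 4 counts in HCs), with a limma-voom adjusted p of 5.8e-07. For *Kcnh1* the fitted fold change was 48.7 (limma-voom adjusted p = 0.00195), and the pooled CPM ratio, to which P1 (14.8 CPM) gave more than P8 (0.392 CPM), was 142 (39.4 to 1176, from 2 counts in HCs). The SGN and HC ranges overlapped, and this call was lost without HC replicate 1 (adjusted p = 0.0148) or 3 (0.0216). Both EAG genes passed the filter on low counts through SGN libraries alone, *Kcnh1* only through E15.5 and P1. A difference from HCs was thus built into their tests. *Kcnh6* was lower in SGNs by a log2 fold change of -3.57 (-4.22 to -2.92, limma-voom adjusted p = 4.9e-09), and *Kcnh8* by -3.50 (-4.12 to -2.89, limma-voom adjusted p = 2.5e-09). For these 2 genes the call was kept by 8 of 8 alternatives and without each of 18 libraries. *Kcnh7* was also lower in SGNs (-1.23, interval -1.62 to -0.83) but under the 4-fold limit. *Kcnh2* was at 0.98 (0.62 to 1.34) on the log2 scale, and this value depended on the scaling: with library size alone, which moved the median of all genes by -0.56, it was 0.43. HCs were sampled at P12 only, an age at which no SGNs were sampled.

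Against glial cells, 5 of the 7 members were called over the 5 ages, against 24.7% of all genes. *Kcnh5* (3.88 ± 0.832), *Kcnh7* (3.29 ± 0.576), *Kcnh6* (3.22 ± 0.843) and *Kcnh2* (2.19 ± 0.261) were higher in SGNs, and *Kcnh8* (-2.96 ± 0.347) was lower (log2 fold changes ± SE). Their limma-voom adjusted p-values ranged from 5.8e-07 for *Kcnh8* to 0.0033 for *Kcnh6*. *Kcnh5* and *Kcnh1* passed the filter on low counts through SGN libraries alone, *Kcnh1* only through E15.5 and P1. A difference from glial cells was thus built into their tests over the 5 ages, and into that of *Kcnh5* at P8. *Kcnh6* passed the filter through SGN and HC libraries and not through glial ones. The call of *Kcnh6* was lost without any 1 of the glial libraries (adjusted p = 0.0207, 0.0233 and 0.0272), and *Kcnh2* fell under the 4-fold limit without glial replicate 3 (1.83), which left 3 members called. Without glial replicate 1, the library with SGN markers, 4 members were called and the log2 fold change of *Kcnh5* was 4.82 and that of *Kcnh7* 3.78. With sample quality weights 2 members were called, *Kcnh2* and *Kcnh8*, and *Kcnh5* (adjusted p = 0.0585), *Kcnh6* (0.133) and *Kcnh7* (0.0172) were lost. *Kcnh1* had 2278 counts over the SGN libraries and 8 in glial cells, a pooled CPM ratio of 31.7 (16.1 to 73.5), with a limma-voom adjusted p of 0.0138. At the matched age P8, 4 members were called, against 20.9% of all genes, namely *Kcnh5* (4.44), *Kcnh7* (3.22) and *Kcnh2* (2.81) higher in SGNs and *Kcnh8* (-2.87) lower. *Kcnh6* was at 3.02 with a limma-voom adjusted p of 0.0136, and it was called with edgeR (0.00103) and DESeq2 (2.1e-05). Without glial replicate 1, 4 members were called at P8. With sample quality weights 2 were called, and *Kcnh5* (adjusted p = 0.0329) and *Kcnh7* (0.0216) were lost, and *Kcnh8* was lost when the compared libraries alone were fitted (adjusted p = 0.0159).

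Between HCs and glial cells, 3 members were called, against 24.4% of all genes. *Kcnh6* (6.79 ± 0.839) and *Kcnh7* (4.51 ± 0.590) were higher in HCs on the log2 scale (± SE, limma-voom adjusted p = 2.2e-06 and 4.3e-06). Of these, *Kcnh6* passed the filter on low counts through HC and SGN libraries and not through glial ones. *Kcnh5* was lower in HCs (adjusted p = 0.00128), on 4 counts in HCs and 334 in glial cells, of which 252 were in glial replicate 1, and the call was lost without that library (adjusted p = 0.0143) and without HC replicate 2 (0.0103) or 3 (0.011). *Kcnh8* differed by 0.54 (-0.16 to 1.25, limma-voom adjusted p = 0.20), so its order in HCs and glial cells, 62.7 and 15.9 TPM, was not resolved by the test. *Kcnh2* was higher in HCs by 1.205 (adjusted p = 0.0027), under the 4-fold limit. With library size as the scaling the median of all genes moved by 0.49 in this comparison.

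**Figure D4:**
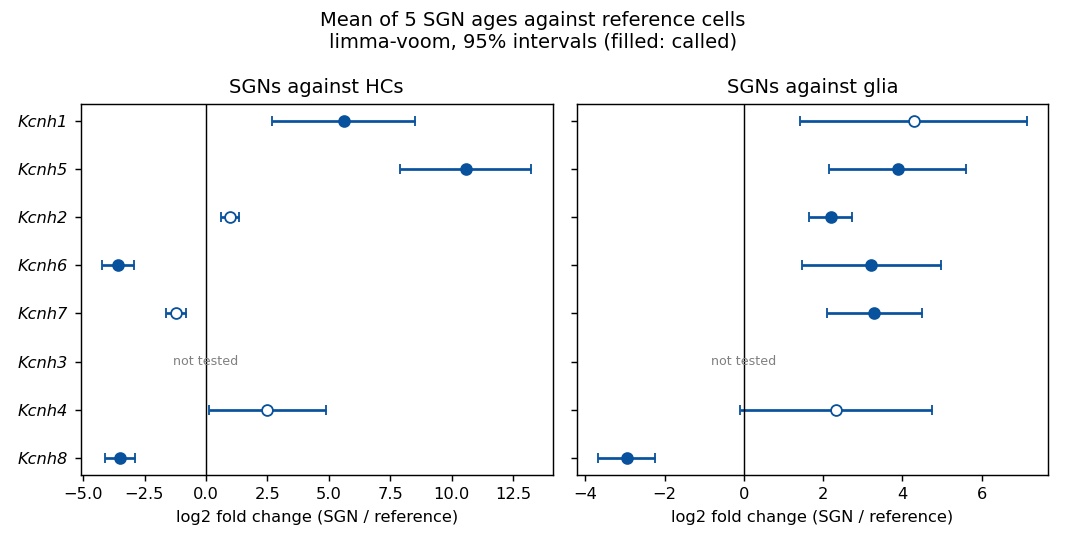
Points give the log2 fold change of the mean of 5 SGN ages against HCs (left) and glial cells (right), with 95% intervals from limma-voom on 21 libraries, and filled points were called. *Kcnh8* is on the negative side in both panels (-3.50 and -2.96), and *Kcnh6* changes side (-3.57 and 3.22).

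Proteins that act with these channels were followed as lists. Of 5 KCNE genes, whose products are small subunits that can join ERG and other potassium channels, none passed the filter in the SGN fit and only *Kcne2* did in the fit of all cells. *Kcne2* held 20, 32 and 26 counts in HCs and 0 in each glial library. SGN libraries held 0 counts up to P8, 32, 10 and 0 at P14 and 3, 0 and 4 at P30, and the 32 counts belong to P14 replicate 1, the SGN library with the most HC markers. Its log2 fold change in SGNs against HCs was -4.69 (-6.26 to -3.12), but it passed the filter on low counts through HCs alone, so a difference was built into that test. *Kcne4* had 438 counts in P8 replicate 1 and none in the other P8 libraries, and that library also had the most connective tissue markers of the SGN libraries (145.7 TPM for *Col1a1*, *Col1a2*, *Dcn* and *Lum*).

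A list of 18 partners held chaperones, ubiquitin ligases, trafficking proteins and calmodulin genes. From E15.5 to P1, 2 of 17 tested partners were called, against 8.26% of all genes. *Calm2* (1.32 ± 0.178), which encodes the calcium sensor that inhibits EAG channels, rose, and *Rffl* (-1.25 ± 0.365), a ubiquitin ligase that acts on immature ERG1, fell (log2 fold changes ± SE). The limma-voom calls were 0 from P1 to P8, 0 from P8 to P14 and 0 from P14 to P30, with 6, 4 and 2 partners at an unadjusted p under 0.05. From E15.5 to P30, 7 of 17 were called, against 34.6% of all genes. *Hsp90aa1* (1.97), a chaperone that helps ERG1 to fold, *Dnajb14* (2.20), *Calm2* (1.74) and *Calm3* (1.29) were higher. *Nedd4l* (-1.88), *Rffl* (-1.98) and *Alg10b* (-1.29) were lower. The median log2 fold change of the list was 0.51, against -0.01 over all genes. Against HCs, 1 of 18 was called (*Calm3*, 2.30), against 26.8% of all genes. Against glial cells, where 24.7% of all genes were called, the number was 3 of 18 (*Hsp90aa1*, *Calm2* and *Calm3*, between 2.08 and 2.93), and the same number at P8, where 20.9% were called. Between HCs and glial cells, 2 of 18 were called, *Hsp90aa1* and *Calm2*, higher in HCs, against 24.4% of all genes. *Calm2* and *Calm3* encode the same protein, and *Calm2* was at 2272 ± 609 TPM at P30 (SD, n = 3).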

How the data were processed

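RNA was amplified and sequenced in 21 libraries of 7 groups, and groups were taken from the sample titles. The authors mapped reads to mm10 with STAR 2.4.0i, counted them per gene of GENCODE vM15 with featureCounts and deposited raw counts with a length for each gene. How strand, pairs and multimapped reads were counted is not given in the sources used here. Even numbers made up between 64.3% and 75.0% of the counts from 1 to 20, so a count may stand for 1 read of a pair. Samples had passed a qPCR check on marker genes in the study.

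Symbols and positions came from GENCODE M21 (52403 of 52550 identifiers matched). TPM divides each count by the gene's deposited length and gives each library 1 common sum. Counts were scaled with TMM (edgeR 4.0.16) and fitted with limma-voom (limma 3.58.1, R 4.3.3) as group means. The tools, CPM filter and thresholds were those that the study's methods name. The fit for ages used 15 SGN libraries and 15113 genes, and that for cell types 21 libraries and 17531 genes. A gene was kept when every replicate of some group exceeded a CPM of 1. The study states 17531 genes without HCs and glia and a larger number with them. Its gene sets thus differ in size from these. Tests were two-sided with Benjamini-Hochberg adjustment over all genes tested, and the scripts were tested on simulated data. Depth lay between 10368240 and 37287489 counts, and limits of 3 counts for a 0 and pooled ratio intervals cover counting error only, because amplified reads are not independent molecules. Replicate numbers carry no stated pairing. Deviations of same-numbered libraries correlated above 0.1 for each number only at P14 and P30 (r = 0.39, 0.24 and 0.10, the last being above 0.1 before rounding), and there the blocked fit is given. Alternatives were edgeR's quasi-likelihood test, DESeq2 1.42.0, library size as the scaling, 2 other filters, sample quality weights, a replicate block, the compared libraries only, each library left out in turn and, for TPM, mitochondrial genes left out of the scaling; transcript lengths were added after the data were seen.

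Named are all 8 members, the KCNE list, partners called in at least 1 comparison, and for the 3 members with the highest group mean the 3 most similar genes. Members and lists were chosen with earlier results of these data known. *Kcne4* and *Kcnh3* values were singled out after they were seen. Some listed genes are not reported here, and list counts and marker sums were computed without them.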

Additional observations from a re-analysis of the deposited data

How the results depend on the processing

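The fold changes of the members were refitted under 8 alternatives and without each library in turn, which gave 854 values for 49 fold changes, of which 809 kept their direction and their side of the thresholds, 15 gained a call, 25 lost one and 5 changed sign. No called change turned its direction. The 5 sign changes were those of uncalled values near 0, namely *Kcnh7* from E15.5 to P1, 0.26 without E15.5 replicate 3, and *Kcnh5* from P1 to P8, -0.20 with library size as the scaling, -0.014 with sample quality weights, -0.01 without P1 replicate 2 and -0.32 without P8 replicate 2. Over the left-out libraries these 2 values ranged from -0.71 to 0.26 and from -0.32 to 0.24. The cause of these changes was not tested.

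With edgeR, 0 members and 649 genes were called from P1 to P8 and 34 genes from P8 to P14. With DESeq2, 219 genes were called from P8 to P14, and 2 members and 97 genes from P14 to P30. Without a filter on low counts, 15 genes were called from P14 to P30. With sample quality weights, 552 genes were called from E15.5 to P1 and 174 from P8 to P14, while the P14 to P30 step had 110 genes with 1 member. The same weights gave 2 members and 2017 genes for SGNs against glial cells, 2 members and 1942 genes at P8, and 2226 genes for HCs against glial cells. With the replicate block, 146 genes were called from P8 to P14, and 1 member and 23 genes from P14 to P30. Outside P14 and P30 the numbers did not pair the libraries, and the block moved no other count by over 1.5 times, although *Kcnh5* from E15.5 to P30 (1.02, adjusted p = 0.0244) and *Kcnh1* against glial cells (4.28, adjusted p = 0.00407) gained a call with it in limma-voom. With the compared libraries alone, 453 genes were called from E15.5 to P1, 52 from P8 to P14, 2 in the last step and 2125 for P8 SGNs against glial cells.

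Leaving out 1 library gave 3 to 3 members from E15.5 to P1, 0 to 2 from P1 to P8, 0 to 0 at both later steps, 4 to 5 from E15.5 to P30, 3 to 4 against HCs, 3 to 6 against glial cells, 4 to 4 at P8 and 2 to 3 between HCs and glial cells. The number of genes called ranged, in the same order, from 701 to 1595, 638 to 982, 28 to 59, 1 to 30, 4225 to 5168, 3880 to 4754, 3417 to 4409, 3014 to 3883 and 3416 to 4204. Scaling by library size moved the median of all genes by -0.14, -0.22, -0.10, -0.02 and -0.48 in the comparisons between ages, and by -0.06 and -0.13 in those of SGNs with glial cells.

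Levels moved by over 1 SD in 14 of 56 cases when mitochondrial genes were left out of the scaling, in 2 with the longest coding transcript as the length and in 17 with the shortest. With 3 libraries per group, a count such as 0 to 20 in *Kcnh1* or *Kcnh4* at P8 limits the fold change to a wide interval.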

Other observations

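Genes with a pattern like that of the 3 most abundant members were ranked by Pearson's r of log2(TPM + 1) over the 21 libraries, among about 9939 protein-coding genes that reached 10 TPM in a group. The libraries fall into 7 groups, so r mostly describes the group means and carries no p-value. *Kcnh2* was most like *Slc9a7* (r = 0.973), *Dnajc15* (0.968) and *Slc35g2* (0.968). Their mean TPM was lowest in glial cells, with 1.39, 7.38 and 0.411, low at E15.5, with 3.24, 19.1 and 1.40, and highest among SGNs at P14. *Kcnh8* was most like *Slc30a7* (r = 0.964), *Metap1d* (0.956) and *Zfp263* (0.954), which were highest in HCs (16.4, 33.6 and 24.0 TPM), next in glial cells (7.43, 19.95 and 9.94) and lowest in P30 SGNs (1.26, 3.86 and 1.99). *Kcnh7* was most like *Slc4a4* (r = 0.953), *Kndc1* (0.951) and *Sgsm1* (0.948), which were at 42.4, 25.7 and 35.8 TPM in HCs and at 0.739, 0.266 and 0.425 in glial cells.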
